A study of Homo sapiens with 22 samples.

Results

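Tags that hold the AP-1 consensus site were followed in a pool of luciferase reporter constructs, each of which carries a 12-base tag in its transcript. Members were the tags with at least 100 counts in both input DNA libraries whose 12 bases hold the 7-base palindromic site TGACTCA or TGAGTCA (C or G in the middle). There were 95 members among 211385 tags past that minimum. All 95 read TGACTCA, and 0 of the 238017 tags listed in any library read TGAGTCA. Orientation could therefore not be compared. The strand column of every file holds a minus sign, the opposite strand of each member reads TGAGTCA, and the labels and files do not say which of the strands is transcribed. The pool was transfected into A549, a human lung adenocarcinoma line, and H520, a human lung squamous cell carcinoma line. Cells received the solvent DMSO or BaP (benzo(a)pyrene, a combustion product found in smoke) at 10 µM, A549 for 18 h and H520 for 42 h. The 4 groups of line and treatment comprised 5 transfections each, which with 1 input DNA library per line makes 22 libraries. Whether transfections used separate cell cultures is not stated, so spreads and p-values are those between these samples. Which construct insert a tag marks was not used here, so a member's level may also carry that of its insert, and several members may share an insert.

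AP-1 is a family of transcription factors that bind DNA as dimers of FOS, JUN and related proteins. Its site is called the TPA response element because phorbol ester induces genes that carry it. Growth factor signals, stress and RAS pathway activity raise AP-1 in epithelial cells, and the bases next to the site are known to change how well dimers bind. BaP acts mainly through another factor, the aryl hydrocarbon receptor.

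The site could start at base 1 to 6 of a tag. It started at base 1 in 9 members, base 2 in 5, base 3 in 9, base 4 in 12, base 5 in 16 and base 6 in 44. In every member with a site at bases 1 to 5, the next base was T. In the 44 members with the site at base 6 the tag ends with it, and the next base is the G of GGC, the 3 bases that end every deposited 15-base tag. The base before the site was A in 45 members and T in 41, and never C or G. It lies outside the tag in the other 9. Tags use only 5334 of the 16384 possible 7-base words (32.6%). The 6-base words TGAGTC and GAGTCA, which make up the missing orientation, occurred in 0 tags. The tags below show the flank classes and the extremes of activity, with the site in capitals.
A before and T after, site at base 3, high in A549 and below the pool in H520: gaTGACTCAtaa
A before and T after, site at base 5, strong and variable in A549: gcaaTGACTCAt
A before and T after, site at base 2, highest member in H520: aTGACTCAtggc
A before and T after, site at base 2, smallest BaP p in A549: aTGACTCAtgca
T before and T after, site at base 5, higher in A549: cagtTGACTCAt
T before and T after, site at base 4, higher in H520: agtTGACTCAta
Site at base 1 with T after, higher in A549: TGACTCAtgcca
Site at base 1 with T after, similar in both lines: TGACTCAtggtc
T before and the constant G after, strong and variable in A549: tggatTGACTCA
A before and the constant G after, high in both lines: cccaaTGACTCA
A before and the constant G after, lowest member in A549: ttcgaTGACTCA
T before and the constant G after, lowest member in H520: ttaatTGACTCA

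Libraries held 178 to 371 M counts. Members had 141 to 4536 counts in the A549 input (median 1255) and 228 to 3916 in the H520 input (median 1096), where reference tags had medians of 1287 and 1033. The member closest to the minimum was accaaTGACTCA, with 141 and 353 input counts. A further 7 listed tags hold the site but fell below the minimum, the nearest being ccattTGACTCA with 99 and 75. Activity below is log2 of RNA TPM over input TPM, each plus 0.5, minus the median of all tags in that library, where TPM is a tag's count per 1 M counts of its library. The reference for each member was the 11963 to 52853 other tags with the same GC count (3 to 7 of 12 bases). A reference was needed because activity moved with GC: reference medians in H520 with DMSO ran from -0.23 at 3 GC bases to 0.075 at 7. The level of a group of tags is the median, within a library, of activity minus the reference median, so a level of 0 is an ordinary tag of that GC count. Levels and their SDs over transfections are descriptions without a test. All libraries of a line share the same tags and the same 1 input library. The SDs and counts of libraries therefore do not measure spread between tags or error in the input.

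In A549 with DMSO, members stood slightly above ordinary tags. Their level in transfections 1 to 5 was 0.10, 0.073, 0.10, 0.15 and 0.13, a mean of 0.11 ± 0.029 (SD, n = 5), which is 1.08-fold. All 5 values were above 0. Of the 95 members, 65 lay above the reference median and 41 above the upper quartile of the reference, which 25% of reference tags exceed by construction. With BaP the level was 0.12 ± 0.030 (SD, n = 5), with 62 and 42 members above those marks. Members differed much more among themselves than this shift. Their activities in A549 with DMSO ran from -0.50 to 2.18 with an SD of 0.43, against a median SD of 0.12 between transfections of a single member. Reference tags also spread widely, with an SD of 0.36 there. In H520 with DMSO the SD was 0.23 for members and 0.31 for reference tags. Without the 3 members called active below, the A549 DMSO SD of activity minus the reference was 0.26, against 0.43 with them.

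Nearly all of the elevation belonged to members whose site was followed by T. This split was made after the values by position had been seen. In A549 with DMSO the 51 members with T after the site had levels of 0.26, 0.22, 0.33, 0.24 and 0.29 in transfections 1 to 5, a mean of 0.27 ± 0.046 (SD, n = 5) or 1.20-fold. The 44 members that end with the site had levels of -0.0042, -0.013, 0.00057, 0.041 and -0.0088, a mean of 0.0031 ± 0.022. The lowest library of the former was above the highest of the latter. Above the upper quartile of the reference lay 33 of the 51 members with T after, and 8 of the 44 that end with the site. The difference between the classes was 0.26 ± 0.054 (SD, n = 5) with DMSO and 0.24 ± 0.043 with BaP, positive in all 10 A549 libraries.

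By single start position, levels in A549 with DMSO were 0.19 ± 0.062 at base 1, 0.25 ± 0.065 at base 2, 0.19 ± 0.092 at base 3, 0.25 ± 0.048 at base 4 and 0.36 ± 0.047 at base 5 (SD, n = 5 each). Base 6 was at 0.0031. Positions 1 to 4 did not differ beyond their spread between libraries. The libraries of base 5, at 0.29 to 0.42, were above all those of base 1 and overlapped those of bases 2 to 4. Between the tags of a position, the SD ran from 0.14 at base 4 to 0.61 at base 3. The order of positions was not tested. Starts at bases 1 to 3 exceeded starts at bases 4 to 6 by 0.12 ± 0.047 with DMSO and by 0.060 ± 0.013 with BaP in A549 (SD, n = 5), and the difference was -0.039 ± 0.037 in H520 with DMSO. The H520 value has no settled sign, since it was 0.0745 over the A549 input and 0.00443 at 500 input counts. That split puts positions 4 and 5 with position 6, so its second group mixes both flank classes. Position 6 and the constant G cannot be told apart, since no member has G after the site at another position.

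The base before the site also went with the level. The 19 members with A before and T after hold the 9-base form with A and T around the site. Their A549 levels with DMSO were 0.42, 0.29, 0.37, 0.40 and 0.40, a mean of 0.38 ± 0.050 (SD, n = 5) or 1.30-fold, and 18 of 19 lay above the reference median. The 23 members with T before and T after had 0.18 ± 0.087 (SD, n = 5). The site started at base 5, the position with the highest level, in 9 of the 19 and 7 of the 23. These classes were not matched on position. With T after, members with A before exceeded those with T before in 5 of 5 libraries with DMSO and 5 of 5 with BaP, by 0.19 ± 0.10 and 0.17 ± 0.075. These values are over the A549 input, and with DMSO the classes stood closer over other inputs. A before and T before had 0.26 and 0.17 over the H520 input, and 0.29 and 0.18 over the mean of both. Among members that end with the site, A before gave 0.047 ± 0.028 (26 tags) and T before -0.055 ± 0.032 (18 tags) in A549 with DMSO, so A before was higher within both flank classes. In H520, A before minus T before with T after was 0.030 ± 0.10 with DMSO, positive in 3 of 5 libraries, and 0.051 ± 0.048 with BaP, positive in 4 of 5. For members that end with the site it was 0.079 ± 0.032 with DMSO and 0.10 ± 0.059 with BaP, positive in 5 of 5 libraries each.

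Near matches of the site gave levels, which are medians, close to 0, but single tags among them stood high. The word TGATTCA, with T in the middle, occurred in 37 tags, all at the end of the tag, and TGAATCA in 0. Their level in A549 with DMSO was -0.0060 ± 0.020 (SD, n = 5), like that of the members which also end with the site. A total of 359 tags held a word 1 base off the site and followed by T, a group added after the data were seen. They had a level of 0.023 ± 0.0070 in A549 with DMSO, and members with T after exceeded them by 0.24 ± 0.047 (SD, n = 5), in all 5 libraries. These 359 tags were matched to members on the base after only, not on the base before or the position. The 238 tags that end in a word 1 base off had -0.011 ± 0.012. TGATTCA is itself 1 base off the site, so the 238 share tags with the 37. In A549 with DMSO the highest single tag stood 1.72 over the reference for TGATTCA. It stood at 3.98 among the 359 and 3.17 among the 238, beside 2.19 among members. The 8-base cyclic AMP response element, the AATAAA signal and the GCGTG core of the xenobiotic response element occurred in 0 tags past the minimum, on either strand for the last, and ATTAAA in 540 (0.255%) but in 0 members.

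Over each line's own input, H520 also had members with T after above those that end with the site, at lower levels than A549. All members had 0.022 ± 0.013 (SD, n = 5) with DMSO and 0.022 ± 0.019 with BaP. Without matching on GC, against all other tags, these levels were -0.0309 and -0.0418. Members with T after had levels of 0.076, 0.058, 0.12, 0.078 and 0.087 in DMSO transfections 1 to 5, a mean of 0.084 ± 0.024, and members that end with the site had -0.022 ± 0.013. The difference was 0.11 ± 0.022 with DMSO and 0.092 ± 0.013 with BaP, positive in all 10 H520 libraries. Base 5 again gave the highest single position, 0.23 ± 0.052 with DMSO, while bases 2 and 3 gave -0.017 ± 0.075 and -0.051 ± 0.017. Members with A before and T after had 0.099 ± 0.062, and 0.00780 against all other tags. Those with T before and T after had 0.069 ± 0.067. The order of these classes rested on the input. Over the mean of both inputs, A before had 0.12 and T before 0.14 with DMSO, and 0.16 and 0.14 with BaP.

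Between the lines, the members with T after differed most where A came before the site. With A before and T after, A549 exceeded H520 by 0.28 with DMSO and by 0.25 with BaP, and the 5 libraries of one line did not overlap those of the other. This held over any input: with the A549 input as the denominator in both lines the DMSO difference was 0.19, with the H520 input 0.16 and with the mean of both 0.18, again without overlap. For all members, by contrast, the difference rested on the input. It was 0.089 with DMSO over each line's own input, 0.084 over the H520 input, 0.043 over the mean of both, and -0.0011 over the A549 input, where levels were 0.11 ± 0.029 in A549 and 0.11 ± 0.027 in H520. The excess of T after over the constant G stayed positive in both lines over each of these inputs. With T before and T after, over each line's own input, the lines differed by 0.11 with DMSO, where their libraries overlapped, and by 0.13 with BaP, where they did not. Over the A549 input, the H520 input and the mean of both, the BaP difference was 0.024, 0.067 and 0.016, each with overlap. Over the 95 members, the values of both lines with DMSO were related by r = 0.38 (Pearson) and rho = 0.44 (Spearman), a description only, since the tags share libraries.

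Single members were tested against a 2-fold change from the pool with limma's treat, adjusted over all 211385 tags. In A549 with DMSO 3 members (3.16%) were called above the pool and 0 below, where 0.978% of all tags were called above and 0.00568% below. The same 3 were called with BaP, where 0.931% of all tags were called above and 0.00426% below. In H520, 0 members were called with either treatment, beside 0.82% of all tags called above and 0.0118% below with DMSO, and 0.843% above and 0.0123% below with BaP. At an unadjusted p under 0.05 there were 0 members in either group, beside 2023 of the 211385 tags with DMSO and 2042 with BaP. Near matches with DMSO also held called tags, counted in either direction. For TGATTCA they were 1 of 37 in A549 and 2 in H520. For words 1 base off they were 3 of 359 in each line with T after, and 4 of 238 in A549 and 3 in H520 at the end of the tag. Without the 3 called members, the level of members with T after was 0.24 ± 0.045 (SD, n = 5) in A549 with DMSO.

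The called members behaved in different ways. The tag gaTGACTCAtaa had A549 activities of 1.92, 1.88, 1.74, 1.92 and 1.60 with DMSO (3.52-fold over the pool, limma adjusted p = 0.00051) and of 1.98, 1.93, 1.72, 1.96 and 1.43 with BaP. In H520 it had -0.15, -0.31, -0.19, -0.18 and -0.16 with DMSO, below the pool in every library. It read 1.43 or more in all 10 A549 libraries, and the lines did not overlap. Its SD was 0.14 with DMSO and 0.23 with BaP, below those of the other 2 called tags.

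The tag gcaaTGACTCAt read 2.30, 1.30, 1.77, 2.47 and 2.74 in A549 with DMSO (adjusted p = 0.011 by limma) and 1.26, 1.49, 2.68, 2.68 and 3.15 with BaP. The tag tggatTGACTCA, which ends with the site, read 2.39, 1.21, 1.91, 2.57 and 2.84 with DMSO (adjusted p = 0.013 by limma) and 1.20 to 3.15 with BaP. Both moved together over transfections, with DMSO transfection 2 and BaP transfections 1 and 2 lowest. In H520 with DMSO they read 0.36 to 0.59 and 0.23 to 0.47. The count of 3 called members hung on single libraries. It was 1 without DMSO transfection 1 or without DMSO transfection 4, 1 without BaP transfection 3 and 0 without BaP transfection 4. Calls over all tags were fewer in the same fits, at 1649 and 1507 against 2068 with DMSO, and at 1305 and 1018 against 1968 with BaP.

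The line difference in DMSO was tested for every tag by glmTreat of edgeR against 2-fold, the inputs serving as offset. It called 1 member higher in A549 and 0 higher in H520, where 0.227% and 0.132% of all tags were called. The member was gaTGACTCAtaa, with a log2 difference of 2.14 (edgeR adjusted p = 1.28e-14). The tags tggatTGACTCA and gcaaTGACTCAt had differences of 2.05 and 1.85 (adjusted p = 0.17 and 0.24 by edgeR), and missed the threshold. Without A549 DMSO transfection 2 the test called 3 members, and 968 tags of the whole pool were called higher in A549 against 480 with it. At an unadjusted p under 0.05 there were 3 members (3.16%), beside 1.19% of all tags. On the same scale, which is not adjusted for GC, the median member differed by 0.10 toward A549 and the median of all tags by 0.0016. Tags without the site but close to it leaned the same way. The median was 0.18 for the 51 members with T after, beside 0.085 for words 1 base off followed by T. It was 0.054 for the 44 members that end with the site, beside 0.060 for words 1 base off at the end of the tag and 0.14 for TGATTCA. As TGATTCA is itself 1 base off, the last groups share tags.

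Below the called members, activities with DMSO were moderate. In A549 cagtTGACTCAt read 0.74, 0.80, 0.85, 0.89 and 0.71, above its H520 values of 0.03 to 0.17 in every library. The tag TGACTCAtgcca had 0.67 ± 0.17 (SD, n = 5) in A549 and 0.066 ± 0.069 in H520, also without overlap. The tag TGACTCAtggtc was even across lines, with 0.62 ± 0.061 in A549 and 0.55 ± 0.031 in H520. So was cccaaTGACTCA at 0.66 ± 0.15 and 0.63 ± 0.13, on only 264 and 228 input counts.

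Some members leaned toward H520. The highest was aTGACTCAtggc, with H520 activities of 0.80, 0.78, 0.74, 0.79 and 0.83 and A549 activities of 0.21 to 0.45 with DMSO. It holds the 9-base form that stood higher in A549 as a group. The tag agtTGACTCAta had 0.54 ± 0.14 (SD, n = 5) in H520 and 0.16 ± 0.091 in A549, and cccgaTGACTCA 0.50 ± 0.12 and 0.26 ± 0.23. The groups did not overlap for the first and second of these tags and overlapped for cccgaTGACTCA. None passed the line test.

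By activity, which is not adjusted for GC, the lowest members in A549 all end with the site. They were ttcgaTGACTCA at -0.50 ± 0.35 (SD, n = 5), gcattTGACTCA at -0.42 ± 0.17 and ttattTGACTCA at -0.36 ± 0.18 with DMSO. In H520 they read -0.17 ± 0.16, -0.18 ± 0.12 and -0.26 ± 0.098. The lowest in H520 were ttaatTGACTCA at -0.51 ± 0.36, ttagtTGACTCA at -0.35 ± 0.048 and atttaTGACTCA at -0.34 ± 0.10, which also end with the site. Against the reference of equal GC count, ttaatTGACTCA was still lowest in H520, at -0.29, but atttaTGACTCA was at -0.11. Next after ttaatTGACTCA on that scale came TGACTCAtaagg and atTGACTCAtgg, both at -0.24 and with T after, named after their values were seen. The tag ttaatTGACTCA read -1.14 in DMSO transfection 4 and -0.51 to -0.22 in the others. Typical members were ccaatTGACTCA, at 0.12 ± 0.17 in A549, and TGACTCAtaatt, at -0.029 ± 0.13 in H520.

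Within each line, BaP was set against DMSO by the quasi-likelihood test of edgeR over all 211385 tags. In A549 it called 0 members and 0% of tags, with 0 members at an unadjusted p under 0.05 beside 2.55% of all tags, and DESeq2 called 0. In H520 it called 0 members and 0% of tags, with 7 members (7.37%) at an unadjusted p under 0.05 beside 4.72% of all tags, and DESeq2 called 0. With the transfection number as a replicate block, H520 still gave 0 called members, where 0.0416% of all tags were called higher and 0.0312% lower. The member log2 fold changes ran from -0.27 to 0.23 in A549 and from -0.35 to 0.25 in H520. Their medians were -0.019 and -0.0036, and 39 of 95 were positive in each line. Over all tags the medians were -0.0014 in A549 and -0.00046 in H520, and 49.2% and 49.75% were positive. The member level over the reference differed by 0.010 between treatments in A549 and by -0.00011 in H520, less than the SD between transfections in either line. For members with T after, the BaP level minus the DMSO level came to -0.039 (A549) and -0.021 (H520), and the libraries of both treatments overlapped in each line. Whether the responses of the lines differed was not tested, and exposure times differed.

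The extreme BaP values belonged to members that did not pass the test. In H520 the smallest p belonged to tTGACTCAtggg, with a log2 fold change of -0.34 (SE 0.099, unadjusted p = 0.0013, edgeR adjusted p = 0.998), which had 0.0042 ± 0.12 (SD, n = 5) with DMSO and -0.26 ± 0.10 with BaP. Its DMSO libraries ran from -0.13 to 0.16 and its BaP libraries from -0.42 to -0.16. The largest fall estimate there was gcttaTGACTCA at -0.35 and the largest rise estimate accaaTGACTCA at 0.25. In A549 accaaTGACTCA had the lowest value, -0.27, on 141 input counts. The smallest p in A549 was that of aTGACTCAtgca at -0.099 (SE 0.048, unadjusted p = 0.051, edgeR adjusted p = 1), and the largest rise estimate that of gcaaTGACTCAt at 0.23 with an SE of 0.44.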

How the data were processed

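Per the labels' protocols, polyadenylated RNA of transfected cells was copied into cDNA and a short stretch around the tag was amplified and sequenced, and, per the series' design text, DNA of the input constructs was sequenced as amplicons too. No molecular identifiers are described. The submitters' processing notes name bcl2fastq. No source here says how reads were matched to tags. The deposited files hold, per the file headers, a raw read count for each tag and the library total. The TPM deposited by the authors is the count per 1 M of that total, as recomputed in every file.

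Counts of all 22 libraries were merged by tag, and a tag missing from a file counted as 0. Tests ran over the 211385 tags with at least 100 counts in both inputs, and a pseudocount of 0.5 TPM was used. Activity was tested with limma 3.58.1 (treat, trend, robust, 2-fold). BaP was tested with edgeR 4.0.16 (TMM, filterByExpr, robust quasi-likelihood) and the lines were compared with glmTreat. DESeq2 1.42.0 was an alternative. All adjusted p-values are Benjamini-Hochberg with a threshold of 0.05. Members and lists were chosen with earlier results of these data known, so levels over members carry no p-value. The split by the base after the site, the A-before and T-after class and the words 1 base off were added after seeing the data. On simulated counts over 211385 tags, 96.5% of 200 tags changed 2-fold by BaP were called in A549 and 100% in H520. Of these calls 9.39% and 11.9% were false, more than the threshold of 0.05 aims at. For 4-fold activity the shares called were 95.5% and 98.5%, and for a 4-fold line difference 96%. The simulated counts varied independently between libraries, with an input free of error. Changes under 2-fold, like the BaP values of members, were not simulated.

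Named tags were the 5 highest and 3 lowest members in each line with DMSO, those nearest the median, the 2 largest line differences each way, the BaP extremes and every member called in the line or BaP test. Transfection numbers entered as a block only in an alternative fit. The libraries share the number between treatments, but the labels do not say that it marks a pair.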

Additional observations from a re-analysis of the deposited data

Results flagged for a closer look

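A search for single libraries far from the other 4 of their group covered 144 groups and marked 7. This is about the share that chance marks, 1 in 20. Base 6 and the constant G hold the same tags but were entered as separate groups. Sites at base 6, which are the sites followed by the constant G, had their highest A549 DMSO level in transfection 4, at 0.0409. The other 4 ranged from -0.013 to 0.00057. The tag gaTGACTCAtaa read -0.3053 in H520 DMSO transfection 2, below the other 4 at -0.19 to -0.15. The tag TGACTCAtaatt read 0.5155 in A549 DMSO transfection 4, above the others at 0.22 to 0.30. The tag tTGACTCAtggg read -0.3901 in A549 DMSO transfection 3, where the others ran from 0.0070 to 0.0998. The tag atttaTGACTCA read -0.0011 in A549 DMSO transfection 4, above the others at -0.25 to -0.19. The tag ttattTGACTCA read -0.1236 in A549 BaP transfection 4, above the others at -0.50 to -0.41.

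The median level of the 9 members with the site at base 3 was above 0 in every A549 library and below 0 in every H520 library. Of the 9, 6 lay above the reference median in A549, and 3 with DMSO and 2 with BaP in H520. The lines differed by 0.2461 with DMSO (0.19 in A549 and -0.051 in H520) and by 0.2636 with BaP (0.16 and -0.11). Base 2, with 5 members, differed between the lines by 0.27 with DMSO and 0.29 with BaP, also without overlap. These values are over each line's own input, and the differences were not tested.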

How the results depend on the processing

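Against 1.5-fold in place of 2-fold, 1 member was called active in H520 with DMSO and 1 with BaP, and the line test called 3 members. All-tag calls rose too, to 3292 and 3537 higher in H520 and to 2528 higher in A549 in the line test. Without the input offset the line test called 2 members and 1364 tags higher in A549. With the other line's input as denominator, the member level was 0.0800 in A549 with BaP, 0.112 in H520 with DMSO and 0.0857 with BaP. The class with A before and T after then had 0.262 and 0.253 in A549 with DMSO and BaP, and 0.184 and 0.153 in H520. T after minus the constant G was 0.175 and 0.153 in H520, the position difference 0.0484 in A549 and 0.0745 in H520 with DMSO, and BaP minus DMSO -0.0261 in A549 and -0.0264 in H520. With the mean of both inputs, the member level was 0.0691 and 0.0481 in H520 with DMSO and BaP, the A-before and T-after level 0.292 in A549 with DMSO and 0.156 in H520 with BaP, T after minus G 0.146 in H520 with BaP, the position difference 0.0952 in A549 with BaP, and BaP minus DMSO -0.0210 in H520.

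With all other tags as reference, the member level was 0.0849 in A549 with BaP and below 0 in H520, at -0.0309 with DMSO and -0.0418 with BaP. T after minus G was then 0.0635 and 0.0555 in H520, and the A-before and T-after level 0.00780 and 0.0279. With a reference of equal GC and input counts, the position difference was 0.0824 in A549 with BaP and T after minus G 0.0798 in H520 with BaP. With means over members in place of medians, the member level was 0.179 and 0.174 in A549 and 0.0701 and 0.0601 in H520 with DMSO and BaP. The A-before and T-after level was 0.481 and 0.478 in A549, the position difference 0.120 in A549 with BaP and -0.000648 in H520 with DMSO, and T after minus G 0.109 in H520 with BaP. At 500 input counts, T after minus G was 0.143 and 0.115 in H520, and the position difference 0.0896 in A549 with BaP and 0.00443 in H520 with DMSO. A pseudocount of 0.1 gave a position difference of 0.0771 in A549 with BaP and an A-before and T-after level of 0.430 in A549 with DMSO, where a pseudocount of 1 gave 0.323. The cause of these moves was not tested.

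Leaving out 1 transfection at a time gave 1 to 3 active members in A549 with DMSO, 0 to 3 with BaP and 1 to 3 members in the line test. With transfection number as a replicate block, 0 members were called in either line. Over all tags the block gave 0 calls in A549, and 88 higher and 66 lower in H520. Deviations of libraries with the same number had correlations from -0.015 to 0.49 (A549) and from 0.044 to 0.16 (H520). They were above 0.1 in some pairs only, so whether a number marks a pair is not settled by them. A library correlated best with its own number in 9 of 10 cases in H520 and 5 of 10 in A549, a hint from the data and not from the design. Alternatives on orientation were not run, since 0 tags hold G in the middle.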
